A study of Homo sapiens with 48 samples.

Results

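RNA was compared between a pair of 22Rv1 derivatives that both lack Mediator kinase activity, dKO-19M with a kinase-dead CDK19 and dKO-8M with a kinase-dead CDK8. The comparison rests on 6 of the 48 libraries of the series, the 3 vehicle cultures of each line. 22Rv1 is a castration-resistant human prostate cancer cell line. Its CDK8 and CDK19 genes were knocked out together, and 1 kinase was then returned to the double-knockout cells by lentiviral transduction. dKO-8 and dKO-19 received the active kinase, and dKO-8M and dKO-19M received a form in which a catalytic aspartate was changed to alanine (D173A). All cells described here were grown with fetal bovine serum for 72 hours in 0.1% DMSO (vehicle) or in 500 nM SNX631, an inhibitor of both kinases. According to the study's methods, dKO-8 and dKO-8M were made from double-knockout cells that already carried an insert-free lentiviral vector, so these lines hold an additional vector that dKO-19 and dKO-19M do not. Whether a line is a single clone is not given in the sources used here. With 1 line per kinase form, the kinase protein, the vector and any other difference between the lines cannot be told apart, and the p-values measure only the spread between cultures.

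CDK8 and CDK19 are closely related kinases that take the same place in the Mediator kinase module, together with cyclin C (CCNC), MED12 or its paralog MED12L, and MED13 or its paralog MED13L. The module binds the core Mediator complex, which links transcription factors to RNA polymerase II, and it acts both through phosphorylation and through its physical presence on Mediator. Comparing both kinase-dead lines asks whether the lines differ where neither kinase is catalytically active. The changed aspartate belongs to the DMG motif that binds magnesium in the active site. The stretch of coding sequence around that codon is shown because its change is what makes both lines kinase dead. The reference sequences below are from GENCODE release 29 on GRCh38, 5′ to 3′ in the sense direction, with the codon of that aspartate in capitals.
CDK8: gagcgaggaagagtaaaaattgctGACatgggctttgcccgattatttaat
CDK19: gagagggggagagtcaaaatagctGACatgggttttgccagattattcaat
The CDK8 codon lies in exon 6 at chr13:26385213-26385215 on the plus strand, and the CDK19 codon lies in exon 6 at chr6:110632157-110632159 on the minus strand. Of these 51 bases, 8 differ between the genes, and 0 of the 17 encoded residues differ. The returned cDNAs were changed at guide target sites so that the knockout nuclease would not cut them. The forward primers that carried those changes are shown next, in lower case where they match the reference coding sequence and in capitals where they do not.
hCDK8-CasR-F: Ttgtttgaatacgagggctgcaaag
hCDK19-CasR-F: gaTCtCtggcatattattaagtttcacc
Counted from the 5′ end of each primer, with the reference base first, the changes are C1T in CDK8 and C3T, T4C and G6C in CDK19. The encoded residues are the same. The deposited counts are sums per gene, so transcripts of the returned kinase and of the edited endogenous gene cannot be told apart.

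CDK8 transcripts were higher in dKO-8M and CDK19 transcripts were higher in dKO-19M, as the line names require. CDK8 (chr13:26254104-26405238) was at 125, 118 and 125 CPM (counts per 1 M counts of the library, after TMM scaling, which evens out differences in RNA composition) in dKO-8M and at 26.7, 27.3 and 27.5 CPM in dKO-19M. CDK19 (chr6:110609978-110815958) was at 124, 123 and 122 CPM in dKO-8M and at 299, 354 and 344 CPM in dKO-19M. The groups did not overlap for either gene. As a log2 difference of dKO-19M from dKO-8M with its standard error, CDK8 fell by 2.17 ± 0.0483 (false discovery rate, FDR, 4.80e-41, edgeR) and CDK19 rose by 1.43 ± 0.0425 (FDR 6.49e-35). The edited endogenous genes still gave transcripts, since CDK8 in dKO-19M was near the 26.8 CPM of parental Rv1-WT and CDK19 in dKO-8M was near its 149 CPM. Counts per gene are therefore no measure of functional kinase. The span between the lines also differed from that of the active pair, where CDK8 averaged 68.7 CPM in dKO-8 and 27.7 CPM in dKO-19, and CDK19 averaged 103 and 510 CPM. The log2 line difference was -0.87 ± 0.0705 (FDR 2.48e-15) away from that of the active pair for CDK8, whose span was wider between the kinase-dead lines, and -0.88 away for CDK19, whose span was narrower.

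**Figure D1:**
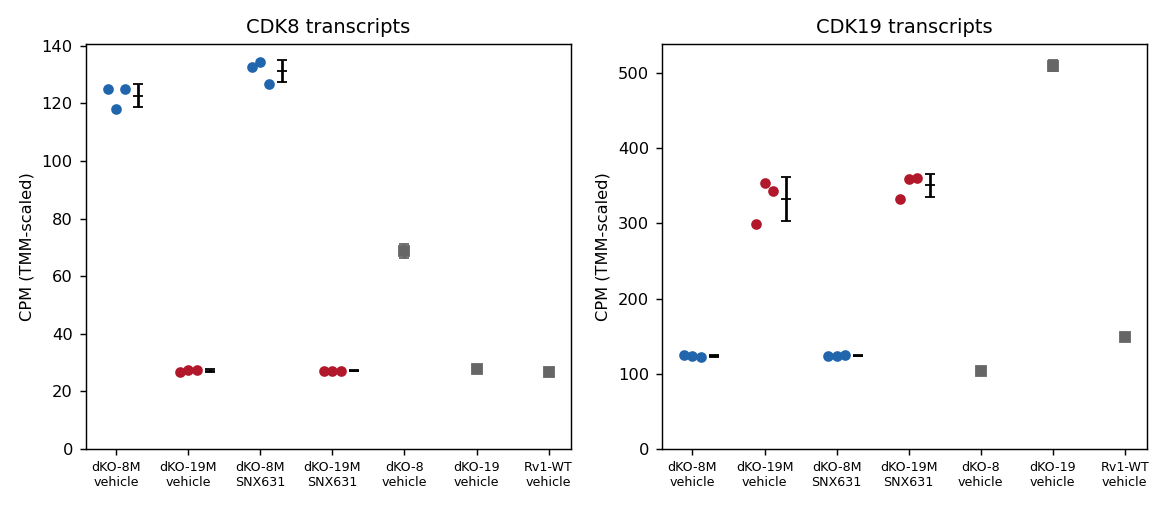
CDK8 and CDK19 transcripts in CPM (vertical axis, from 0) in 7 groups (horizontal axis). Points are single libraries of dKO-8M and dKO-19M, with the mean and SD of each group beside them. Squares with bars are the mean and SD of dKO-8, dKO-19 and Rv1-WT under vehicle. CDK8 stands above 118 CPM in the vehicle libraries of dKO-8M and near 27 CPM in those of dKO-19M, and CDK19 stands between 299 and 354 CPM in those of dKO-19M.

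Among the other subunits of the kinase module, MED12L was the single member that passed the limits of the study, an FDR under 0.01 with more than a 1.5-fold change. It was at 4.78, 4.31 and 3.53 CPM in dKO-8M and at 1.56, 2.68 and 1.97 CPM in dKO-19M, with no overlap. Its log2 difference was -1.05 ± 0.154 (FDR 1.12e-07), and under SNX631 it was -0.86 and was called again. CCNC, the cyclin that activates the kinases, was at 48.1, 45.9 and 45.1 against 57.2, 53.0 and 50.1 CPM, a log2 difference of 0.20 below the fold limit. MED12 was at 88.2, 89.8 and 95.9 against 72.8, 94.8 and 89.9 CPM, and its groups overlapped (log2 difference -0.09, FDR 0.325). MED13 and MED13L, which join the module to core Mediator, had log2 differences of -0.39 and -0.47 that were smaller, -0.23 and -0.29, without replicate 1 of dKO-19M. In that library MED13L was at 113 CPM, against 176 and 172 CPM in the other replicates of the line. Of the 26 tested core Mediator genes, 0 were called by edgeR and 0 by DESeq2, 15 had an unadjusted p under 0.05, and the median log2 difference was 0.07.

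Replicate 1 of dKO-19M vehicle stood apart from the other replicates. The chi-square per degree of freedom of its counts was 16 against replicate 2 and 15.5 against replicate 3, while replicates 2 and 3 gave 1.42 and the pairs of dKO-8M gave 1.27 to 1.64, so no pair was a library deposited again. Of 10328 genes at 10 CPM or more, 78 (0.755%) departed by over 1.5-fold in replicate 1 from the other replicates, against 1 and 2 genes in replicates 2 and 3 and 0 in each dKO-8M library. The departure moved with transcript length. In 4 nearly equal groups of genes by exonic length, from shortest to longest, the median log2 departure of replicate 1 was 0.18, 0.06, -0.04 and -0.18, and in each dKO-8M library these medians stayed within 0.01 of 0. The line difference followed the same order, with medians of 0.12, 0.04, -0.04 and -0.12, and 0.06, 0.01, -0.02 and -0.07 without replicate 1. The order was the same under SNX631 (0.05, 0.02, -0.01 and -0.05) and in the active pair (0.08, 0.02, -0.01 and -0.03). Replicate 1 of dKO-19M under SNX631 also departed in this order, by 0.04, 0.02, -0.00 and -0.04. Its chi-square per degree of freedom was 3.23 and 2.84, against 1.56 between the other replicates of that group. Whether the length relation has a part in single results was not tested. For the total and for several lists, counts of calls are also given without that library. Overlaps with other comparisons and counts by gene type are given with it. Depth was 19.3 to 31.5 M counts per library in the 6 libraries and 13.2 to 31.5 M in the series.

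Of 20022 genes tested, 1438 (7.18%) were called between dKO-19M and dKO-8M under vehicle. They comprised 778 genes higher in dKO-19M (3.89%) and 660 lower (3.30%). Without replicate 1, 1205 of 20493 genes (5.88%) were called, 682 higher (3.33%) and 523 lower (2.55%). Of the 1438 genes, 1113 remained called in that fit and 0 were called in the opposite direction. In 1426 of the 1438 genes (99.2%) the 3 libraries of one line lay outside the range of the other, which 8961 of all tested genes (44.8%) did as well. The fold exceeded 2 in 686 genes, of which 422 were higher and 264 lower, and it exceeded 4 in 183 genes, of which 133 were higher and 50 lower. Without replicate 1, 593 of the 686 and 164 of the 183 genes were still called. Many of the largest folds belonged to weakly expressed genes. The median of the mean levels was 3.14 CPM over the called genes and 11.3 CPM over all tested genes, and 120 of the 183 genes past 4-fold were under 1 CPM. Protein-coding genes made up 1149 of the calls (7.81% of those tested), and long noncoding RNA genes made up 178 (5.93%), of which 115 were higher and 63 lower.

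The genes highest in dKO-19M included a secreted protease inhibitor, receptors and a calcium channel. SERPINE2 (chr2:223975112-224039319), which encodes a secreted serine protease inhibitor, was at 1.18, 1.27 and 1.34 CPM in dKO-8M and at 46.7, 45.6 and 44.2 CPM in dKO-19M. Its log2 difference was 5.18 ± 0.136 (FDR 1.54e-37). No library of either line came near the other, and both the parental line (7.39 CPM) and the active lines (3.78 and 3.43 CPM) lay in between. GRIK3 (chr1:36795527-37034129), a kainate receptor subunit, was at 0.0654, 0.0846 and 0.214 CPM in dKO-8M and at 7.65, 8.64 and 8.29 CPM in dKO-19M (6.15 ± 0.309, FDR 5.02e-24). ADGRF5 (chr6:46852512-46954943), an adhesion G protein-coupled receptor, had 3 counts in all dKO-8M libraries together and 323 in dKO-19M. That is a ratio of 99.2 scaled to depth, with a 95% counting interval from 33.6 to 484. CACNA1H, a T-type calcium channel subunit, was at 4.15, 4.57 and 4.92 CPM in dKO-8M and at 39.9, 47.0 and 47.1 CPM in dKO-19M (3.31 ± 0.103, FDR 6.26e-32). KHNYN (chr14:24429286-24441834), a cofactor of the zinc-finger antiviral protein, was at 4.06, 3.30 and 3.58 CPM and at 34.5, 37.4 and 36.5 CPM (3.29 ± 0.0868, FDR 1.54e-37). The genes at this end were chosen among called genes whose groups did not overlap. Their separation over the 6 libraries was therefore set by the choice and is no result. For KHNYN the parental level, 33.5 CPM, was that of dKO-19M, and dKO-8M lay lower, as did the active lines at 11.6 CPM (dKO-8) and 17.6 CPM (dKO-19). The other genes at this end were the LIM homeobox factor LHX1 (4.75), JHY (4.38), the zinc-finger genes ZNF415 (3.79) and ZNF90 (3.58), the adhesion receptor ADGRB1 (3.52), the protocadherin PCDHB5 (3.42) and the thioredoxin-like NXN (3.27), all given as log2 differences.

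The genes lowest in dKO-19M included a calcium-binding protein, a ciliary transport protein and a growth factor. PVALB (chr22:36800684-36819479), which encodes the calcium buffer parvalbumin, was at 3.07, 3.38 and 3.42 CPM in dKO-8M and at 0 counts in each dKO-19M library. It was at least 86.1-fold lower in dKO-19M, with a floor of 3 counts over the group. It was also at 0 CPM in Rv1-WT, and at 4.42 CPM in dKO-8 against 0.0171 CPM in dKO-19. The active pair thus differed in the same direction past the limits, and the difference of the differences was not called. IFT57 (chr3:108160812-108222570), a component of intraflagellar transport, was at 2.32, 2.41 and 2.19 CPM in dKO-8M and at 0.0371, 0.118 and 0.0744 CPM in dKO-19M (-4.83 ± 0.296, FDR 2.88e-20). All 4 double-knockout derivatives lay below the 41.9 CPM of Rv1-WT, with 0.0436 CPM in dKO-8 and 0.670 CPM in dKO-19. IGF1, the insulin-like growth factor, was at 4.02, 4.82 and 5.56 CPM in dKO-8M and at 0.631, 0.631 and 0.409 CPM in dKO-19M (-3.08 ± 0.216, FDR 7.68e-18). SEMA4A, a membrane semaphorin, was at 7.13, 6.47 and 7.70 CPM and at 1.11, 1.22 and 1.34 CPM (-2.52 ± 0.13, FDR 1.56e-23). As at the other end, separate groups were a condition of the choice. RPL23AP2, a ribosomal protein pseudogene (-4.32), and its neighbour CYP4F8, a cytochrome P450 gene (-4.00), followed, then ELFN2 (-3.40), JCAD (-3.39), ANKRD33 (-3.12), the delta-catenin gene CTNND2 (-2.43), PRUNE2 (-2.39) and the bicarbonate transporter SLC4A8 (-2.32). Beside CDK8, the lowest p-values among genes that fell were those of ARHGAP20, a GTPase-activating protein at 138, 130 and 131 against 36.7, 43.1 and 45.0 CPM (-1.68 ± 0.0513, FDR 2.53e-34), and TP53INP1, a p53-inducible gene at 266, 262 and 261 against 76.6, 88.6 and 87.6 CPM (-1.64 ± 0.0557, FDR 1.20e-31). In both genes every dKO-8M library lay above every dKO-19M library. Of 33 genes with the largest differences, the lowest p-values or a place in the kinase module, 21 overlap a gene on the opposite strand in the annotation, and whether counting used the strand is not given in the sources used here.

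**Figure D2:**
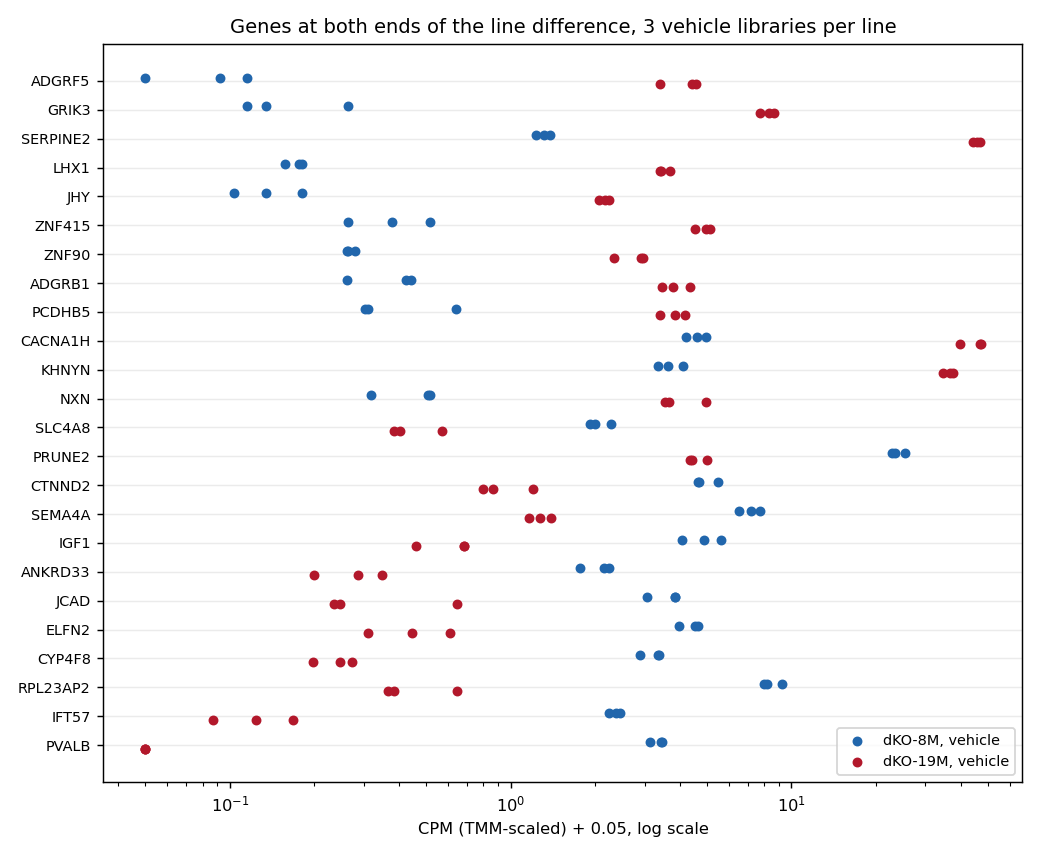
Levels of the genes at both ends of the line difference in the 3 vehicle libraries of dKO-8M and of dKO-19M, as CPM plus 0.05 on a log axis, with a row for each gene. The genes were chosen among those whose groups did not overlap. Examples are SERPINE2 (1.18 to 1.34 against 44.2 to 46.7 CPM) and IGF1 (4.02 to 5.56 against 0.409 to 0.631 CPM).

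Cultures treated with SNX631 give a second, separate set of 3 libraries per line. There, 1185 genes (5.92%) were called between the lines, 635 higher in dKO-19M (3.17%) and 550 lower (2.75%). Of the 1438 genes called under vehicle, 893 (62.1%) were called in the same direction under SNX631, which is 75.4% of the SNX631 calls, and 0 were called in the opposite direction. The sign was the same in 1422 (98.9%), including genes that were not called. Genes higher under vehicle had a median log2 difference of 1.07 under vehicle and 0.88 under SNX631, and genes lower under vehicle had medians of -0.89 and -0.78. The share called again was 73.8% among genes past 2-fold and 51.5% among the others. SERPINE2 (5.38), GRIK3 (6.38), KHNYN (3.11), IGF1 (-2.44), SEMA4A (-2.28), CDK8 (-2.28) and CDK19 (1.50) all differed again past the limits. A test of whether the line difference changed with SNX631 called 0 genes (0.00%) by edgeR, where the lowest FDR was 0.0501. By edgeR, 1690 genes (8.44% of those tested) had an unadjusted p under 0.05. DESeq2 likewise called 0 at the limits, but gave 27 genes at an FDR under 0.05 and 1455 at an unadjusted p under 0.05.

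The active pair, dKO-19 against dKO-8 under vehicle, shows how far lines of the same construction but with active kinases differ. There 1300 genes (6.49%) were called, 618 higher in dKO-19 (3.09%) and 682 lower (3.41%). The higher share, 47.5% of these calls, was 36.6% when libraries were scaled by library size alone. Of the 1438 genes called between the kinase-dead lines, 256 (17.8%, or 19.7% of the calls of the active pair) were called in the same direction, 123 (8.55%) in the opposite direction, and 1059 were not called. The median log2 difference in the active pair was 0.12 for genes higher in dKO-19M and -0.15 for genes lower in dKO-19M. A test of the difference of the differences called 1686 genes (8.42%), or 1568 without replicate 1 of dKO-19M, and 682 of the 1438 genes (47.4%) were among them. CAPN2, a calpain protease subunit, had the lowest p of that test among genes with the larger value in the kinase-dead pair. It was at 16.2, 16.4 and 16.3 CPM in dKO-8M and at 65.0, 70.5 and 68.6 CPM in dKO-19M, but averaged 147 CPM in dKO-8 and 32.8 CPM in dKO-19. Its order between CDK8 and CDK19 lines was thus reversed between dead and active kinases (log2 2.06 and -2.17, difference 4.23 ± 0.0892, FDR 2.79e-42). NAMPT, the rate-limiting enzyme of NAD salvage, and TAGLN2, an actin-binding protein, had values of 0.40 and 0.54 below the fold limit in the kinase-dead pair and fell by 1.16 and 1.76 in the active pair. The mitochondrial channel gene VDAC2 had 0.15 in the kinase-dead pair and rose by 1.52 in the active pair.

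**Figure D3:**
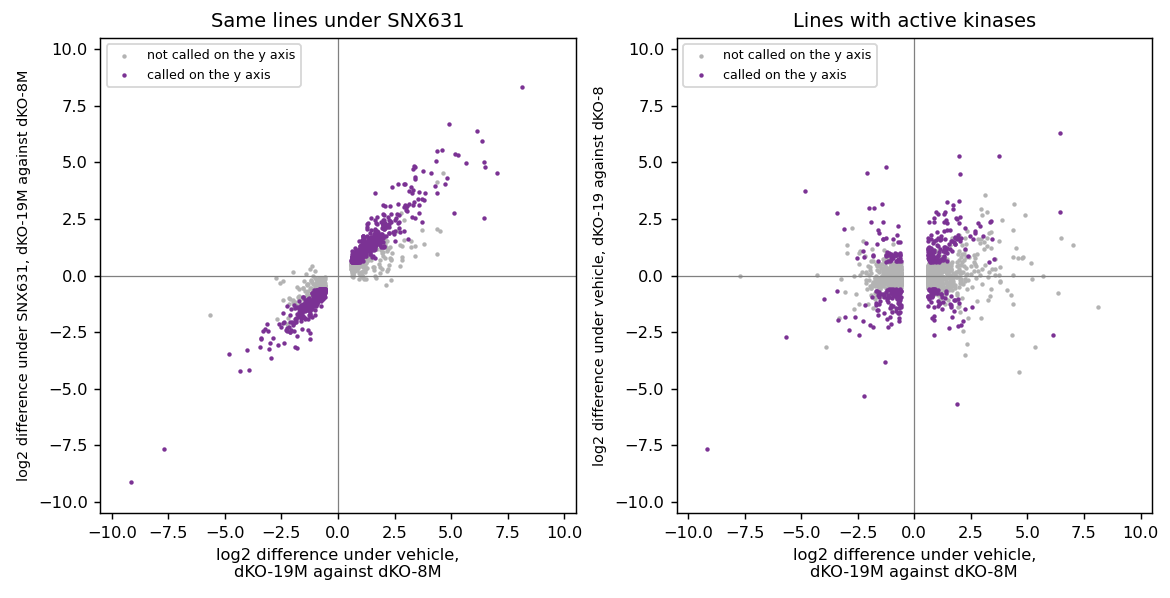
Log2 line difference of each of the 1438 genes under vehicle in the kinase-dead pair (horizontal axis) against its log2 difference in the kinase-dead pair under SNX631 and in the active pair under vehicle (vertical axes), with genes called on the vertical axis in purple. Points follow the diagonal under SNX631, where 98.9% have the same sign, and spread around 0 in the active pair, where 59.2% do.

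Lists of genes by function are given next by their counts of calls, to be read against 7.18% of all tested genes called, 3.89% higher and 3.30% lower. No gene of luminal prostate identity passed the limits, while several prostate surface antigens did. Of 12 tested luminal identity genes, 0 were called by edgeR and 0 by DESeq2, 8 had an unadjusted p under 0.05, all 12 were at 10 CPM or more in all 6 libraries, and their median log2 difference was 0.01, the same as over all tested genes. KLK3, the gene for prostate-specific antigen, was low in both lines, at 0.556, 0.634 and 0.428 CPM against 0.557, 0.552 and 0.409 CPM (-0.12, FDR 0.839). It averaged 2.64 CPM in dKO-8, 5.87 CPM in dKO-19 and 10.7 CPM in Rv1-WT. TMPRSS2, an androgen-induced protease gene, was at 15.9, 17.3 and 17.2 CPM against 15.6, 15.6 and 15.5 CPM (-0.11, FDR 0.265), so no difference past the limits was seen.

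Of 24 tested androgen response genes, 2 fell in dKO-19M and 0 rose, with a median of -0.14. That is 8.33% of the list, near the share of all genes. KLK4, an androgen-regulated kallikrein, was at 10.1, 9.68 and 10.4 CPM in dKO-8M and at 3.05, 2.64 and 3.05 CPM in dKO-19M (-1.78 ± 0.129, FDR 7.07e-17). STEAP2, a metalloreductase of prostate membranes, was at 124, 125 and 119 CPM and at 34.6, 43.7 and 44.1 CPM (-1.59 ± 0.0597, FDR 7.85e-30). Neither gene overlapped between the lines. In the active pair both had the opposite order, with KLK4 at 2.97 and STEAP2 at 0.65, and the differences of the differences, -4.75 and -2.24, were called. In the active pair 6 genes of this list rose and 2 fell, with a median of 0.23.

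Of 13 tested prostate surface antigens, 4 rose and 3 fell (3 and 3 without replicate 1), with a median of -0.02. CD24, a mucin-like adhesion molecule, was at 64.0, 61.4 and 66.0 CPM in dKO-8M and at 164, 152 and 154 CPM in dKO-19M (1.30 ± 0.048, FDR 2.30e-30). STEAP1 was at 76.5, 73.5 and 72.5 CPM and at 33.1, 29.3 and 29.9 CPM (-1.27 ± 0.0618, FDR 1.24e-24). PSCA, prostate stem cell antigen, was at 47.6, 51.7 and 46.6 CPM and at 10.9, 10.1 and 9.86 CPM (-2.24 ± 0.158, FDR 1.33e-13). These groups were fully separated, and in the active pair STEAP1 and PSCA were higher in dKO-19 (0.88 and 0.81). CEACAM5 and CEACAM6 rose as well and were almost without counts in dKO-8M, where CEACAM5 averaged 0 CPM and CEACAM6 averaged 0.0428 CPM, against 0.468 and 1.31 CPM in dKO-19M. CEACAM5 and CEACAM6 were named after their values were seen.

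The AP-1 and immediate-early list and the EGF list also held calls. Of 20 tested AP-1 and immediate-early genes, 4 rose and 1 fell, with a median of 0.23. Those that rose were the feedback inhibitors SPRY4 and DUSP6 and the ETS factors ETV4 and ETV5, which are known targets of ERK rather than AP-1 subunits. SPRY4 was at 4.48, 4.10 and 5.29 CPM in dKO-8M and at 14.2, 16.6 and 16.8 CPM in dKO-19M (1.79 ± 0.13, FDR 3.14e-16). The others had log2 differences of 1.51 (DUSP6), 1.20 (ETV5) and 1.16 (ETV4), each again past the limits under SNX631. The gene that fell was PHLDA1 (-0.73), named after its value was seen. Of 12 tested EGF family ligands and ERBB receptors, 2 fell and 0 rose, with a median of -0.37. TGFA, an EGF receptor ligand, was at 5.10, 5.62 and 4.06 CPM and at 2.01, 2.37 and 2.05 CPM (-1.22 ± 0.179, FDR 1.22e-07). NRG3, an ERBB4 ligand, was at 2.06, 1.69 and 1.55 CPM and at 0.186, 0.710 and 0.335 CPM (-2.14 ± 0.294, FDR 2.48e-08).

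The HOX, Wnt and SMAD lists each held genes that differed. Of 31 tested HOX genes, which set position along the body axis, 5 rose (16.1% of the list) and 0 fell, with a median of 0.23, and 3 rose without replicate 1. HOXA10 was at 8.24, 9.39 and 8.61 CPM in dKO-8M and at 18.2, 15.3 and 15.5 CPM in dKO-19M (0.91 ± 0.0867, FDR 5.97e-13), and HOXA7 had a log2 difference of 1.08. Both lie close to HOXA9, also called, on chromosome 7. HOXA9 and HOXA10 overlap in the annotation and had fractional counts in 56% and 40% of libraries, so their calls are not separate. Of 31 Wnt pathway genes, 2 rose and 2 fell (12.9% of the list called), with a median of 0.15. The ligand WNT3A (-1.09) and the receptor-degrading ligase RNF43 (-0.79) fell, while the ligand WNT5A (1.87) and the transcriptional repressor TCF7L1 (0.66) rose. WNT5A was at most 0.632 CPM in any of the 6 libraries, and neither it (0.71) nor TCF7L1 (0.52) was called under SNX631. Of 25 SMAD pathway and ID genes, 2 rose and 3 fell, with a median of -0.08. The inhibitory SMAD7 was at 42.8, 43.8 and 43.1 CPM and at 30.8, 28.2 and 25.7 CPM (-0.61 ± 0.0675, FDR 4.96e-11), and the ligands BMP4 (-1.36) and TGFB3 (0.71) went opposite ways. BMP2 had 1 count in dKO-8M and 54 in dKO-19M, a ratio of 49.8 with a 95% counting interval from 8.56 to 2001.

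The epithelial, matrix and secretory vesicle lists held calls in both directions. Of 22 epithelial and mesenchymal genes, 1 rose and 4 fell (1 and 2 without replicate 1), with a median of -0.09. The tight-junction gene CLDN7 was at 32, 29.7 and 33.3 CPM in dKO-8M and at 82.3, 73.8 and 70.1 CPM in dKO-19M (1.25 ± 0.05, FDR 8.28e-29). TWIST1, a mesenchymal transcription factor, was at 41.0, 43.5 and 43.6 CPM and at 20.02, 18.2 and 19.9 CPM (-1.14, FDR 4.11e-19), and N-cadherin (CDH2) had a value of -0.97. The tight-junction gene OCLN fell as well (-0.60, FDR 3.82e-13) and was below the fold limit without replicate 1. Of 24 collagen and matrix genes, 3 rose and 2 fell (3 and 1 without replicate 1), with COL5A2 at 1.09, COL4A2 at 0.72 and COL12A1 at -1.34. Of 16 neuroendocrine and secretory vesicle genes, 1 rose and 3 fell, with a median of -0.13. The vesicle protein gene SYT4 was at 21.8, 20.9 and 19.1 CPM and at 9.58, 11 and 11.5 CPM (-0.95 ± 0.0724, FDR 1.52e-16), the granin gene CHGB had a value of -0.85 and the calcium-binding SCGN -1.92, and SCG2, which rose by 0.78, was lost without replicate 1.

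Genes of antigen presentation and of the amino-acid stress response rose in part. Of 14 tested MHC class I pathway genes, 5 rose and 0 fell with a median of 0.44, and 3 rose without replicate 1. TAPBP, which loads peptides onto class I molecules, was at 59.4, 56.8 and 60.5 CPM in dKO-8M and at 91.5, 91.9 and 94.1 CPM in dKO-19M (0.65 ± 0.054, FDR 3.86e-15). The peptide transporter TAP1 had 0.66, and both genes were called again under SNX631. Of the 14 genes, 9 lie on chromosome 6, where their median was 0.50, and the others had a median of 0.25. Of 26 ATF4 targets, 4 rose and 0 fell with a median of 0.29. DDIT4, an inhibitor of mTORC1, was at 37.0, 39.0 and 38.8 CPM and at 72.0, 68.9 and 66.9 CPM (0.86 ± 0.104, FDR 2.75e-08). The mitochondrial enzyme PCK2 (0.85) and the cystathionine lyase CTH (0.81) followed, and CHAC1 (0.60) was lost without replicate 1. PCK2 was the member called again under SNX631, and in the active pair this list had 0 genes higher and 3 lower, with a median of -0.23.

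Of 33 interferon response genes, 2 rose and 2 fell (12.1% of the list, and 2 and 1 without replicate 1) with a median of 0.00, with ISG20 at 0.97, IFI35 at 1.79 and IRF1 at -0.60. Of 15 NF-kappaB genes, 1 rose and 2 fell, and without replicate 1 the call that remained was BCL3 (0.72). Of 18 NRF2 targets, 2 rose, the glutathione synthesis gene GCLC (0.65) and NQO1 (0.69). MYC was at 236, 252 and 245 CPM and at 370, 344 and 355 CPM, with no overlap and a log2 difference of 0.54 ± 0.0479 (FDR 3.47e-14) that was below the fold limit. In the cell cycle lists, CDK1 was called among 24 mitosis genes, at 375, 370 and 360 CPM against 256, 234 and 232 CPM (-0.61 ± 0.0402), and CCNE2 (-0.60) among 29 replication genes. Of 24 sterol genes, 1 rose and 0 fell, with a median of -0.09. RPS18, the single call among 30 ribosomal protein genes, was at 1218, 1191 and 1239 CPM and at 2330, 1807 and 1794 CPM (0.70). Without replicate 1 its log2 difference was 0.56, just below the fold limit. The whole ribosomal list had a median of 0.30, and 0.18 without that library. Of 42 lists with a tested gene, 14 held no call by edgeR (101 of their 179 genes had an unadjusted p under 0.05, and DESeq2 called 0), among them the MYC network, endoplasmic reticulum chaperones, heat shock and respiratory chain genes. Lists of other cell types were near 0 in both lines except for the fibroblast list, which summed to 8.55 to 9.39 CPM in dKO-8M and 11.1 to 13 CPM in dKO-19M, with COL1A2 and FAP at 0 and 19.9 to 20.7 CPM in Rv1-WT. Its called members were ACTA2 (0.94) and COL3A1 (2.99).

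The line difference was spread unevenly over the chromosomes. Genes of chromosome 6 were higher in dKO-19M, with a median log2 difference of 0.27 over 976 tested genes, 77.6% of them above 0 against 50.5% of all tested genes, and with 110 genes called higher and 12 lower. Genes of chromosome 8 were lower in dKO-19M, with a median of -0.24 over 656 genes, 75.6% of them below 0, and with 9 called higher and 71 lower. Chromosomes 22 (-0.17, 8 higher and 28 lower), 18 (-0.15, 9 and 17) and 7 (0.11) followed, and the medians of all other chromosomes lay within 0.07 of 0. Without replicate 1, chromosome 6 kept a median of 0.27 with 82 genes higher and 10 lower, and chromosome 8 had -0.25 with 10 higher and 55 lower. Chromosome 22 then had 5 higher and 28 lower, and chromosome 18 had 9 and 15. The shift was not limited to called genes, since the genes that were not called had medians of 0.23 on chromosome 6 and -0.20 on chromosome 8. Under SNX631 the medians were 0.25 for chromosome 6, -0.24 for chromosome 8, -0.17 for chromosome 18 and -0.16 for chromosome 22, and in the active pair they were 0.01, -0.07, -0.01 and -0.01. Genes named above lie on these chromosomes and did not all move with them. On chromosome 6, ADGRF5, CDK19, CD24, GCLC, RPS18, TAP1 and TAPBP were higher in dKO-19M, while COL12A1 and SCGN were lower. On chromosome 8, TP53INP1, PSCA and CCNE2 were lower in dKO-19M, while ADGRB1 and MYC were higher. SMAD7, CDH2 and SYT4 on chromosome 18 and PVALB and ELFN2 on chromosome 22 were lower in dKO-19M, as were these chromosomes.

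**Figure D4:**
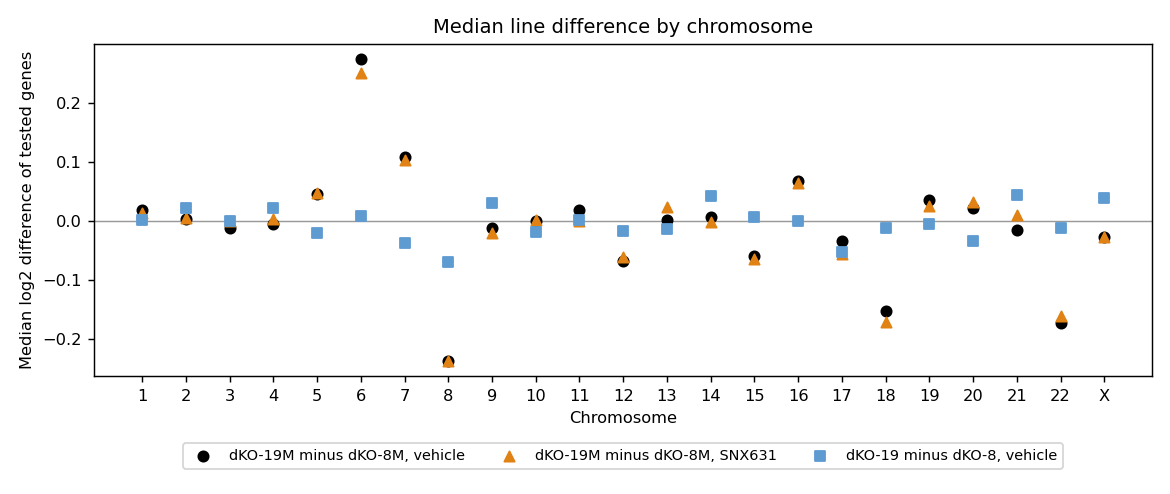
Median log2 difference of the tested genes of each chromosome (horizontal axis) for the kinase-dead pair under vehicle and under SNX631 and for the active pair. Chromosome 6 stands highest (0.27 and 0.25) and chromosome 8 lowest (-0.24 and -0.24) in the kinase-dead pair, where the active pair is at 0.01 and -0.07.

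Relative to Rv1-WT, the lines stood at different levels on these chromosomes. These levels use genes with a mean of at least 1 CPM in Rv1-WT under vehicle, 742 on chromosome 6 and 501 on chromosome 8. On chromosome 6 the median log2 level relative to Rv1-WT was -0.28, -0.28 and -0.30 in the dKO-8M libraries and -0.05, -0.04 and -0.04 in the dKO-19M libraries, and it averaged -0.05 in dKO-8 and -0.08 in dKO-19. Here dKO-8M stood below the other lines. On chromosome 8 it was 0.19, 0.21 and 0.19 in dKO-8M and -0.04, -0.01 and -0.03 in dKO-19M, and it averaged 0.22 in dKO-8 and 0.16 in dKO-19, so dKO-19M was the double-knockout derivative that did not share the higher level. On chromosome 18 the values were -0.07, -0.09 and -0.07 in dKO-8M and -0.30, -0.22 and -0.21 in dKO-19M. There dKO-8 averaged -0.08, dKO-19 averaged -0.09, and Rv1-Luc, a luciferase-carrying subline with both kinases, averaged -0.20. On chromosome 22 the values were 0.05, 0.06 and 0.09 in dKO-8M and -0.08, -0.10 and -0.09 in dKO-19M. The averages there were 0.09 in dKO-8, 0.09 in dKO-19 and 0.03 in Rv1-Luc. On both chromosomes dKO-19M stood below the other double-knockout derivatives. Chromosome 16 lay above Rv1-WT in both lines, where dKO-8M averaged 0.10 and dKO-19M 0.16. Along chromosome 6, in bins of 20 Mb from its start, the median line differences were 0.35, 0.36, 0.38, 0.29, 0.20, 0.19, 0.12, 0.05 and 0.19, and along chromosome 8 they were -0.08, -0.11, -0.14, -0.26, -0.28, -0.31, -0.29 and -0.43. The difference was thus larger on the early part of chromosome 6 and on the late part of chromosome 8. In the active pair the bins of chromosome 8 had medians of 0.10, 0.11, 0.06, -0.12, -0.18, -0.23, -0.23 and -0.15. The late part of chromosome 8 was therefore also lower in dKO-19 than in dKO-8. The bins of chromosome 6 lay between -0.06 and 0.06 in the active pair.

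**Figure D5:**
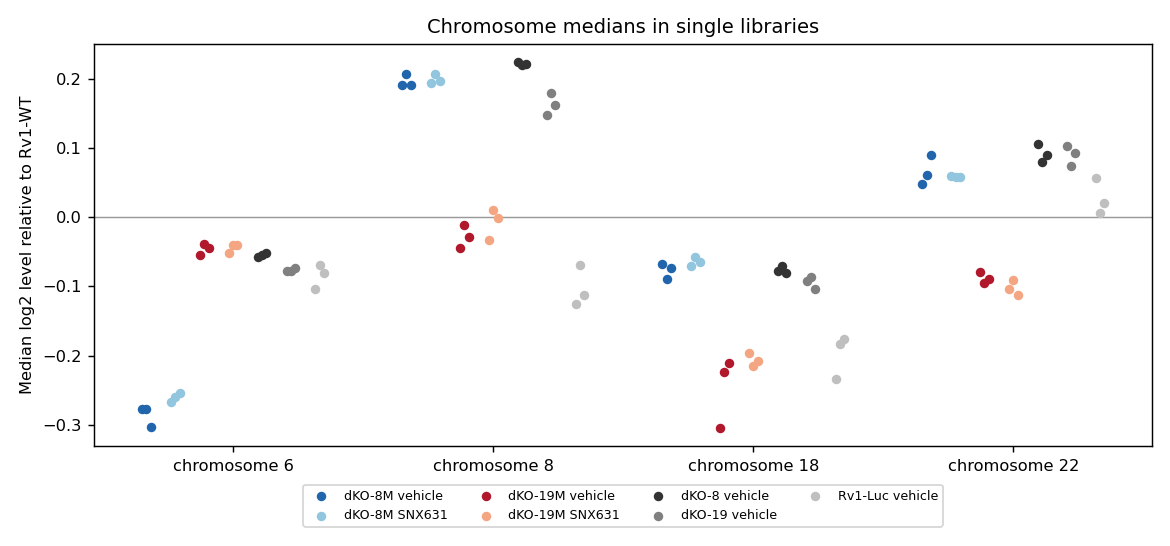
Median log2 level relative to Rv1-WT for chromosomes 6, 8, 18 and 22 (horizontal axis), over tested genes with a mean of at least 1 CPM in Rv1-WT. Each point is a library, and SNX631 libraries are shown for dKO-8M and dKO-19M alone. The dKO-8M libraries lie at -0.30 to -0.25 on chromosome 6, apart from the other lines, and the dKO-19M vehicle libraries lie near 0 on chromosome 8, below the other double-knockout lines.

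Some of the called genes were neighbours. Runs of at least 4 consecutive tested genes called in 1 direction were looked for after the values were seen. On chromosome 19 (chr19:15564074-15662825) CYP4F23P, RPL23AP2, CYP4F8 and CYP4F3 were lower in dKO-19M, with log2 differences from -4.32 to -1.57. On chromosome 2 (chr2:187464230-189225312) the coagulation inhibitor TFPI, the engulfment adaptor GULP1 and the fibrillar collagens COL3A1 and COL5A2 were higher. TFPI was at 0.785, 0.888 and 1.02 CPM in dKO-8M and at 7.76, 7.38 and 6.88 CPM in dKO-19M (3.05), far apart. On chromosome 1 (chr1:91680343-92184725) the betaglycan gene TGFBR3 (-1.09), BRDT (-1.44), EPHX4 (-0.81) and BTBD8 (-0.71) were lower, and on chromosome 6 (chr6:5084581-6007605) PPP1R3G, LYRM4, FARS2 and NRN1 were higher, by 0.63 to 0.81. Both of these runs were broken without replicate 1, where BRDT, BTBD8, PPP1R3G, LYRM4 and FARS2 were not called. A run of protocadherin gamma genes on chromosome 5 and one at CPVL and CHN2 on chromosome 7 consist of genes that share reads or overlap, and their counts are uncertain.

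Which line departed from the parental cells varied from gene to gene. Among the 778 genes higher in dKO-19M, the Rv1-WT level was nearer to that of dKO-19M in 501 (64.4%), and among the 660 lower genes it was nearer to that of dKO-8M in 346 (52.4%). The level in dKO-8 was nearer to dKO-8M in 463 of the higher genes (59.5%) and in 398 of the lower genes (60.3%). The level in dKO-19 was nearer to dKO-19M in 375 of the higher genes and to dKO-8M in 403. These counts use the same Rv1-WT, dKO-8 and dKO-19 libraries for every gene and are given as a description.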

How the data were processed

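Total RNA of 22Rv1 derivatives was sequenced, with 3 libraries per group assigned by sample title. The deposited table holds expected counts, which the authors made for each gene; 81.6% of nonzero values are whole within 1e-09. The submitters' processing notes name FastQC, cutadapt 2.8, STAR 2.7.2b, featureCounts, Subread 2.0.3 and the builds GRCh38.p13 and GRCm39, and their options are not given in the sources used here. Coordinates, lengths and gene types are from GENCODE release 29 (GRCh38), which held 96.7% of the tested genes.

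Counts were rounded, 2 transgenes were left out, and genes were kept by filterByExpr (minimum count 10, minimum total 15). All 48 libraries entered one fit with a mean per group: edgeR 4.0.16 (limma 3.58.1, R 4.3.3), TMM normalization, robust quasi-likelihood F-test, two-sided, Benjamini-Hochberg adjustment over all tested genes, with 32 residual degrees of freedom and a biological coefficient of variation of 4.20%. A call needed an FDR under 0.01 and more than a 1.5-fold change, as in the study. The 5 comparisons were the kinase-dead pair under vehicle and under SNX631, the active pair under vehicle, and 2 interactions. The script was tested on simulated data. DESeq2 1.42.0, other normalizations, filters, limits, libraries left out and a replicate block were alternatives.

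Named genes were the 12 highest and 12 lowest log2 differences among called genes with a symbol, a mean of at least 1 CPM, separate groups and a call without dKO-19M replicate 1; the 3 lowest p-values in each direction; the kinase module; the 4 lowest p-values among called members of each of 43 lists; KLK3, TMPRSS2 and MYC; and the 3 lowest p-values in each direction of each interaction. Some genes that this rule names are not reported here. The comparison, the lists and the genes were chosen with earlier results of these data known. Intervals and the floor of 3 counts reflect counting error alone.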

Additional observations from a re-analysis of the deposited data

Results flagged for a closer look

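The line difference of the kinase-dead pair differed from that of the active pair, by the interaction test of edgeR, in 1686 genes. Among the genes with the largest differences or lowest p-values, the kinase module and the androgen response genes, and those with the lowest p of this test, the log2 difference of the differences (kinase-dead pair minus active pair) was positive for GRIK3 (8.75), SERPINE2 (5.31), CAPN2 (4.23), ZNF415 (4.04), LHX1 (3.99), ZNF90 (3.57), NXN (3.31), CACNA1H (3.15), ADGRB1 (2.8), KHNYN (2.69), TAGLN2 (2.31), PCDHB5 (1.78) and NAMPT (1.56). It was negative for IFT57 (-8.55), ANKRD33 (-5.17), KLK4 (-4.75), RPL23AP2 (-4.36), SEMA4A (-3.29), CYP4F8 (-2.97), CTNND2 (-2.97), ELFN2 (-2.72), SLC4A8 (-2.46), PRUNE2 (-2.41), STEAP2 (-2.24), TP53INP1 (-1.43), JCAD (-1.41), VDAC2 (-1.36), IGF1 (-1.23), ARHGAP20 (-1.01), CDK19 (-0.88), CDK8 (-0.87) and MED12L (-0.81). The test also called 34 further genes of the lists, with values from -3.05 to 3.66, among them PSCA (-3.05), STEAP1 (-2.15), RNF43 (-1.46) and CLDN7 (1.61). The size for IFT57 is not well determined, since dKO-8 held 3 counts of it in all and dKO-19M held 6. For GRIK3 the 3 dKO-8M libraries held 8 counts in all and the dKO-8 libraries 529.

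The blasticidin resistance transgene, which was outside the gene tests, gave 15.7 ± 1.22 counts per 1 M counts of the library, without TMM scaling, in dKO-8M (SD, n = 3) and 19.4 ± 0.54 in dKO-19M (SD, n = 3) under vehicle, against 0 counts in Rv1-WT.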

How the results depend on the processing

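No named gene reversed its direction in the vehicle comparison under any alternative, but which direction held more calls did depend on the setting. An FDR limit of 0.05 with no fold limit gave 7640 genes for the kinase-dead pair under vehicle, 5905 under SNX631, 6611 for the active pair and 5918 for the difference between the pairs, and a test against a 1.5-fold change gave 437, 389, 444 and 574. DESeq2 called 1333 genes under vehicle, and scaling by library size alone called 1444, of which 48.7% were higher against 54.1% with TMM. Fewer were called under vehicle when only the libraries of the comparison were fitted (1147). Thinning the counts to the smallest library gave 1179, and a minimum count of 50 gave 1203. For the active pair the higher share was 47.5% with TMM, 57.0% in the test against a 1.5-fold change and 51.7% at an FDR of 0.05, where the difference between the pairs went from 54.7% to 49.5%. Leaving out single libraries gave 1205 to 1471 calls under vehicle, 1049 to 1104 under SNX631, 1153 to 1203 for the active pair and 1557 to 1700 for the difference between the pairs. For the difference of the lines between SNX631 and vehicle, where edgeR called 0 genes, no filter on low counts gave 8, a replicate block gave 1 and leaving out single libraries gave 0 to 5, with 5 without dKO-19M SNX631 replicate 1 and 1 without dKO-19M vehicle replicate 2 or 3. Of the named genes, 93 were called under vehicle, and their alternative values kept the call in 1558 cases and lost it in 108. The 12 that were not called stayed so in 207 cases and passed in 9.

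Whether replicate numbers pair the cultures was not settled, and the fit took them as unpaired. The correlations of same-numbered deviations were -0.08, -0.05 and -0.05 under vehicle, 0.13, 0.06 and 0.09 under SNX631 and 0.13, 0.02 and -0.00 in the active pair. Differently numbered ones ran from -0.08 to 0.12 under vehicle. Under SNX631 they ran from -0.10 to 0.02, below each same-numbered value. A replicate block gave 1446 calls under vehicle and 1186 under SNX631. The comparison has 3 cultures per line and 1 line per kinase, so it cannot separate a kinase from its line, and genes near the minimum count are measured with little precision.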
